A study of Mus musculus with 30 samples.

Results

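The collagen genes are those whose probe name on an Illumina mouse bead array has the form Col, a number, a and a number. The array carried 88 such probes for 40 genes among 45281 probes in all. A gene counted as measured when 1 of its probes was detected (detection p under 0.01) on at least 3 of the 30 arrays, and its detected probe with the highest mean stood for it. That left 32 collagen genes of 13870 measured genes, 11 of them fibrillar, 3 of the basement membrane type IV and 18 of other classes. No probe of Col4a3, Col4a4, Col4a6, Col9a3, Col10a1, Col19a1, Col25a1 or Col28a1 met the rule, and these 8 genes are not described further.

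The arrays profiled primary mouse embryonic fibroblasts (MEFs) after 2 to 3 passages in culture, MEFs collected 2 weeks after transformation, and tumours that transformed MEFs formed in nude mice. Transformation was by knockdown of p53 and overexpression of HRasV12, an activated Ras, and the tumours come from cells that carry both. At each stage the cells were Smchd1 null, through the MommeD1 point mutation on an FVB/N background, or Smchd1 wildtype FVB/N. Each of the 6 groups had 3 replicates, which in tumours were recipient mice with 3 arrays each. Nothing in the labels ties the culture replicates to separate embryos, so a p-value reflects only how far these samples spread, which may be technical. A tumour also holds cells of its recipient. Values are log2 intensities, so fold changes are powers of 2 of the differences given.

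Collagens are extracellular proteins whose chains wind into triple helices. The fibrillar types I, II, III, V and XI form the banded fibrils of connective tissue and cartilage, type IV forms the sheet-like network of basement membranes, and the other classes coat fibrils, anchor basement membranes, form fine filaments or span the cell membrane. Fibroblasts are the main source of types I, III, V and VI, chondrocytes make types II, IX and XI, and collagen chains need hydroxylation and chaperones in the endoplasmic reticulum before they are secreted and cross-linked.

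Smchd1, a non-canonical SMC protein of gene silencing, checked the genotype labels. Null minus wildtype, its log2 difference was -2.32 ± 0.09 (SE, n = 3) among primary MEFs, -2.13 ± 0.10 among transformed MEFs (both called by limma) and -1.18 ± 0.15 among tumours (limma adjusted p = 1). Trp53, which encodes p53, differed by -3.10 ± 0.10 in null and -3.38 ± 0.10 in wildtype transformed MEFs against primary MEFs. All 10 fibroblast markers were above background in every group, where background (log2 6.25 to 6.37) is the level that 95% of the never-detected probes stay under. Replicates of tumours spread more, with a median variance of 0.0947 over genes, against 0.0166 for transformed and 0.0196 for primary MEFs. The arrays of primary and transformed MEFs lay on different chips by the labels, so transformation and chip cannot be told apart, nor can tumour and chip.

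**Figure D1:**
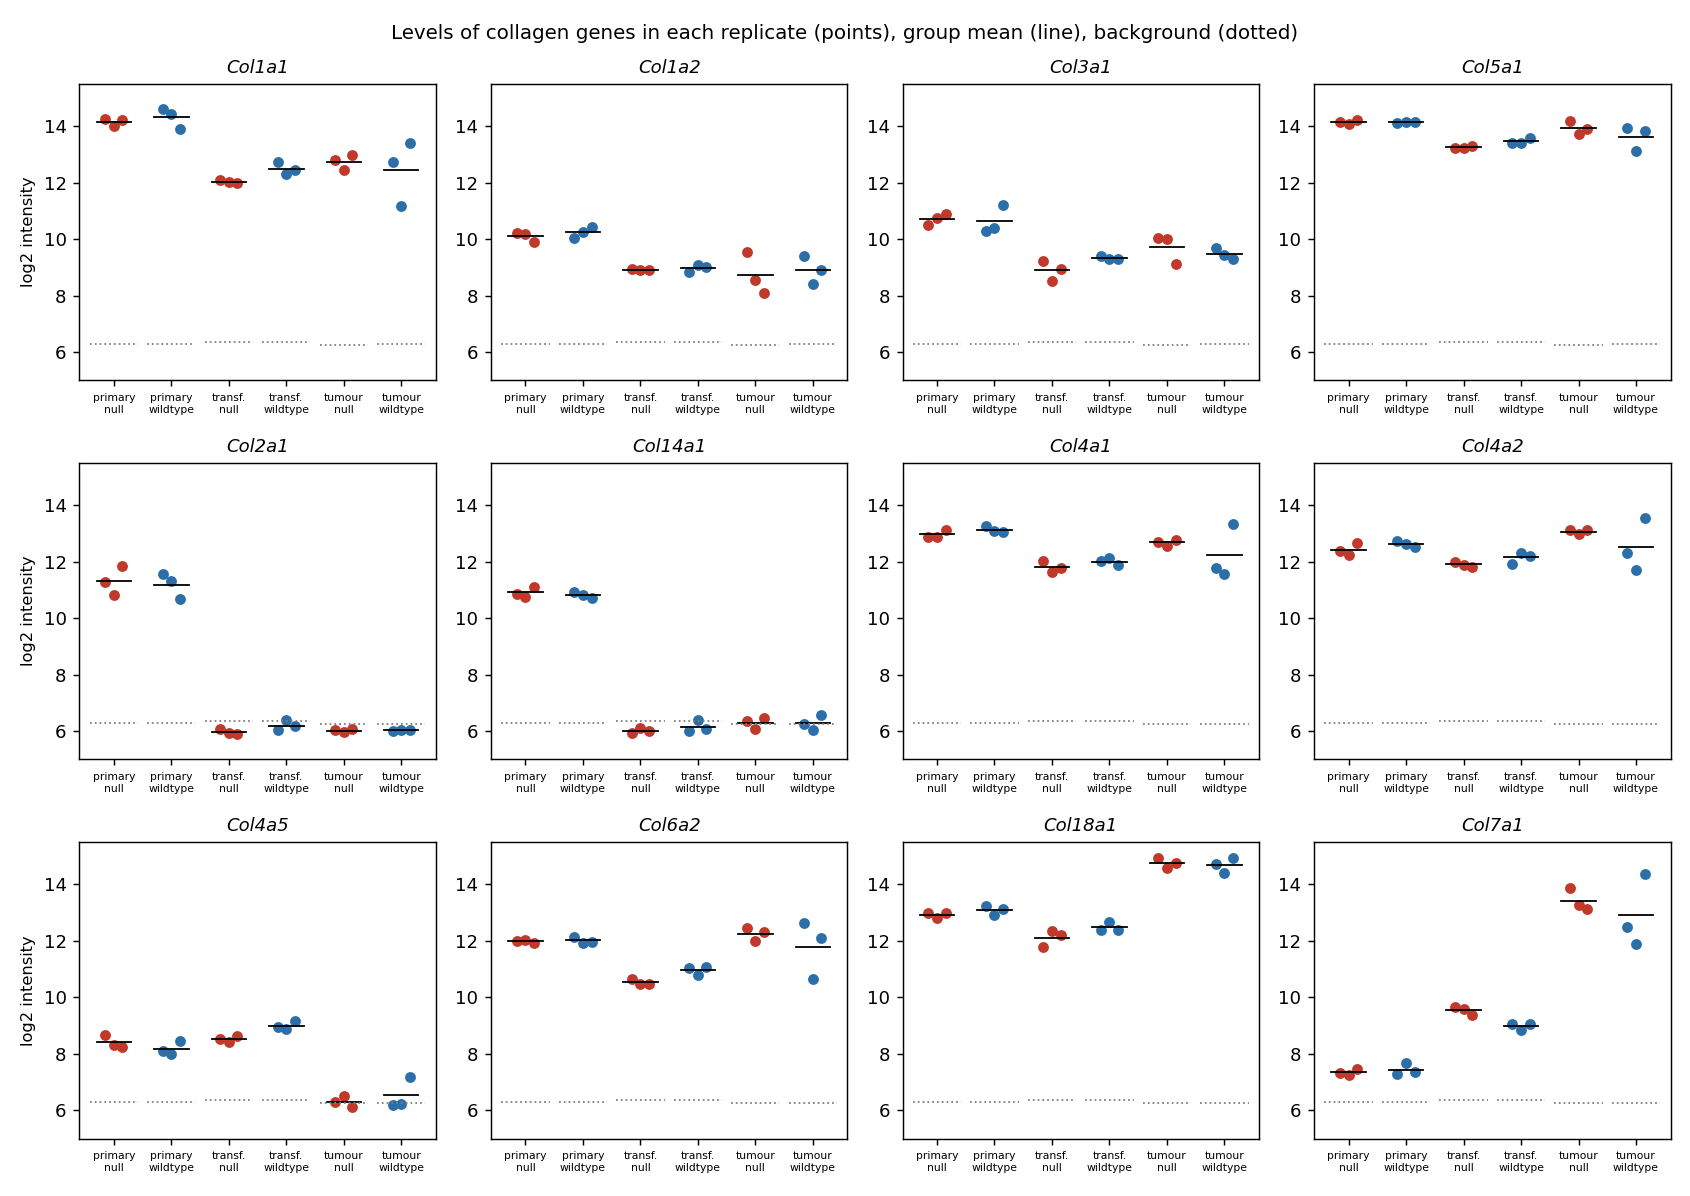
Log2 intensity (y axis) of 12 collagen genes in the 6 groups (x axis). Points are replicates, red for null and blue for wildtype, black lines are group means and dotted lines the background level. Col1a1, Col2a1 and Col14a1 stand lower in transformed than in primary MEFs in both genotypes, and Col7a1 stands higher in transformed MEFs and highest in tumours.

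Most collagens fell with transformation. Limma called 24 of 32 in null cells, 1 higher and 23 lower, where 54.4% of all 13870 genes were called (adjusted p under 0.05, 28.7% higher and 25.8% lower). In wildtype cells it called 26 of 32, 3 higher and 23 lower, against 52% of all genes (26.4% higher and 25.6% lower). The median collagen difference was -1.05 in null and -0.96 in wildtype cells, and the median of all genes was 0.04 and 0.02. Replicates did not overlap for 24 of 32 collagens in null (60% of all genes) and 27 of 32 in wildtype cells (60.2% of all genes). The genotypes share no arrays here. Of the 23 collagens that fell in each genotype 22 were common, which is 95.7% of either list. The share common to both genotypes over all genes was not computed. Some of them passed the detection rule through primary MEFs, where they were high, so their fall is not independent of the rule. Col2a1, Col9a2 and Col22a1 were detected on 6 arrays, Col11a1 and Col14a1 on 7 and Col8a2 on 9. Over genes detected on at least 15 arrays, 16 of 21 collagens were called lower in each genotype. Of all 10804 such genes 2609 were lower in null and 2623 in wildtype cells. In bulk samples fewer cells of a type and less RNA per cell cannot be told apart.

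Among the fibrillar collagens 8 of 11 fell in null and 9 of 11 in wildtype cells. The chains of type I, the most abundant collagen of connective tissue, are encoded by Col1a1 and Col1a2. Col1a1 was at 12.07, 12.01 and 11.99 in null transformed MEFs against 14.25, 13.99 and 14.20 in null primary MEFs, and at 12.73, 12.31 and 12.43 in wildtype transformed against 14.61, 14.42 and 13.91 in wildtype primary MEFs. No transformed replicate reached the lowest primary one. The fall was 4.36-fold in null (log2 -2.12 ± 0.16, adjusted p = 1.47e-07) and 3.54-fold in wildtype cells (-1.82 ± 0.16, adjusted p = 6.8e-07). Col1a2 was between 8.89 and 8.93 in null transformed against 9.91 to 10.20 in null primary MEFs, and fell 2.28-fold there and 2.40-fold in wildtype cells. Its promoter region, with that of Col3a1, is shown because the 2 genes encode major fibroblast chains that fell together in both genotypes. Col3a1, the single chain of type III, fell 3.52-fold in null (-1.82 ± 0.22) and 2.48-fold in wildtype cells (-1.31 ± 0.22).

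Promoter windows of 300 bases around the annotated start come from RefSeq (build GRCm38.p6), where 26 of the 32 measured collagens had an entry. They are printed from 5′ to 3′ on the gene's strand, and capitals mark matches on either strand to CCAAT (the CCAAT box), GGGCGG (the GC box), TATAAA (the TATA box) or TGANTCA (the AP-1 motif, where N is any base). The Col1a2 window lies at chr6:4505368-4505667 (plus strand) and that of Col3a1 at chr1:45311288-45311587 (plus strand).
Col1a2: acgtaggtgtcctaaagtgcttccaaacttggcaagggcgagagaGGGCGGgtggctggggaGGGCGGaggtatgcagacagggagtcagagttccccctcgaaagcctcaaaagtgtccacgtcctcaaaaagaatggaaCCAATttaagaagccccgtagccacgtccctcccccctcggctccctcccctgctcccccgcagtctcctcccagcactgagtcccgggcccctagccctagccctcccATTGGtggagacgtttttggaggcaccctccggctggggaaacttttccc
Col3a1: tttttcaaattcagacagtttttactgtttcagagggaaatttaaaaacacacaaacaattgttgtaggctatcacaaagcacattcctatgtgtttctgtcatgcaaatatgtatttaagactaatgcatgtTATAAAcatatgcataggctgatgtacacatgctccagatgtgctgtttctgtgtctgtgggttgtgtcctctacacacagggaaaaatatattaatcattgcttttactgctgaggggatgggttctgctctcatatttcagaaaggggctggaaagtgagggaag
The Col1a2 window held 2 CCAAT and 2 GGGCGG matches and the Col3a1 window 1 TATAAA match. Over the 29 windows of these 26 genes, some of which have more than 1, CCAAT occurred in 37.9%, GGGCGG in 62.1%, TATAAA in 13.8% and TGANTCA in 3.45%. Over all 32851 windows the shares were 37.4%, 35.7%, 13.6% and 7.81%. A match is a match of letters and not a shown binding site.

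Type V, which regulates the width of type I fibrils, fell in both main chains. Col5a1 was at 13.23, 13.23 and 13.29 in null transformed against 14.14, 14.06 and 14.21 in null primary MEFs (-0.89 ± 0.08), and differed by -0.68 ± 0.08 in wildtype cells. Col5a2 fell 2.99-fold in null (-1.58 ± 0.16) and 2.30-fold in wildtype cells, and in null transformed MEFs it was above background in 1 of 3 replicates. Col5a3, the chain found in fewer tissues, was called lower in wildtype cells alone (-0.29 ± 0.11, adjusted p = 0.045, against -0.24 ± 0.11, adjusted p = 0.088 in null cells). That call was lost without wildtype primary replicate 1 or 2 or wildtype transformed replicate 1 or 3 (adjusted p = 0.0722 to 0.185), without a detection filter (0.068) and with 1 spread for all 6 groups (0.155), and the test of the difference between genotypes gave 0.05 ± 0.16 (adjusted p = 0.925).

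Cartilage collagens Col2a1 and Col9a2 fell in both genotypes. Both were detected on 6 arrays and were high in primary MEFs alone, so the direction is not independent of the detection rule. Col2a1, the chain of type II, was at 6.07, 5.95 and 5.92 in null transformed MEFs, none above background, against 11.29, 10.80 and 11.85 in null primary MEFs. That is at least 31.0-fold lower (adjusted p = 1.22e-09). In wildtype transformed MEFs it was at 6.04, 6.39 and 6.17, with 1 of 3 above background, against 11.56, 11.32 and 10.67 in wildtype primary MEFs. The transformed mean lay under background there too, so the fall was at least 28.1-fold (adjusted p = 2.45e-09). Col9a2, a type IX chain that sits on type II fibrils, fell 14.4-fold in null and 12.9-fold in wildtype cells. In null transformed MEFs Col9a2 was above background in 1 of 3 replicates, so the size of that fall is limited by background. The groups of both genes were far apart, with every transformed replicate below every primary one.

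Other cartilage chains gave smaller or no calls. Col9a1, the partner chain of Col9a2, differed by 0.18 ± 0.19 in null and 0.10 ± 0.19 in wildtype cells and Col11a2 by 0.22 ± 0.21 and 0.29 ± 0.21, with neither called. Col11a1 was called lower in both genotypes (-0.62 ± 0.19 and -0.58 ± 0.19). Its chosen probe was detected on 7 arrays and was highest in primary MEFs, so the direction is not independent of the detection rule. Those calls were lost without null transformed replicate 2 or 3 (adjusted p = 0.0671 and 0.0545) and without wildtype primary replicate 1 or 2 or wildtype transformed replicate 1 (0.0508 to 0.0864), and another Col11a1 probe, which was detected on 1 array, differed by 0.29 in null and 0.16 in wildtype cells. Of the remaining fibrillar genes, Col27a1 is a short fibrillar chain of cartilage and other tissues. By its chosen probe it was not above background in any transformed culture and was at least 2.77-fold lower in null and at least 2.69-fold lower in wildtype cells. A second Col27a1 probe, detected on 22 arrays, was at 6.67 to 7.18 in transformed cultures, above background. It differed by 0.35 in null and -0.02 in wildtype cells, so the fall rests on 1 probe. Col24a1, a chain of developing bone, rose 1.52-fold in wildtype cells (0.61 ± 0.15), a call lost with 1 spread for all 6 groups (adjusted p = 0.0732), and differed by 0.20 ± 0.15 in null cells (adjusted p = 0.276).

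Most measured markers of chondrocytes and osteoblasts fell, while the summed level of the chondrocyte markers was higher in transformed MEFs. Of 5 measured chondrocyte markers, 3 fell and 1 rose in null cells and 4 fell and 1 rose in wildtype cells. Of all genes 25.8% fell and 28.7% rose in null and 25.6% fell and 26.4% rose in wildtype cells. Matn1, a cartilage matrix protein, was at least 5.93-fold lower in null and at least 7.58-fold lower in wildtype transformed MEFs, while Sox9, the transcription factor of cartilage, rose by 1.08 ± 0.09 and 0.90 ± 0.09. All 5 chondrocyte markers were above background in primary MEFs, and 3 in null and 2 in wildtype transformed MEFs. Their summed level (log2) was 13.18 to 13.29 in null transformed against 12.49 to 12.64 in null primary MEFs and 12.96 to 13.10 in wildtype transformed against 12.33 to 12.66 in wildtype primary MEFs. Of 5 osteoblast markers 4 fell in each genotype, with a summed level of 12.94 to 13.59 in null transformed against 13.42 to 13.88 in null primary MEFs, which overlap. In wildtype the osteoblast markers summed to 12.81 to 13.18 in transformed against 13.27 to 13.49 in primary MEFs. Their part in the collagen differences was not tested.

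Both ubiquitous type IV chains fell in both genotypes. Col4a1 and Col4a2, which together make the main type IV trimer of basement membranes, are neighbours transcribed away from each other. Their 300-base windows, at chr8:11312777-11313076 (minus strand) and chr8:11312555-11312854 (plus strand), share 78 bases, and are shown because the windows of this divergent pair overlap.
Col4a1: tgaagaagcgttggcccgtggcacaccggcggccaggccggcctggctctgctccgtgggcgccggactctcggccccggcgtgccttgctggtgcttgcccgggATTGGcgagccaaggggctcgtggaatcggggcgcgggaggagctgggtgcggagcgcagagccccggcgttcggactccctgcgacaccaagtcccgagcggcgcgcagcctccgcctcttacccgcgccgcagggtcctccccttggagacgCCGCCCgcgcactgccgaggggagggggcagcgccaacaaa
Col4a2: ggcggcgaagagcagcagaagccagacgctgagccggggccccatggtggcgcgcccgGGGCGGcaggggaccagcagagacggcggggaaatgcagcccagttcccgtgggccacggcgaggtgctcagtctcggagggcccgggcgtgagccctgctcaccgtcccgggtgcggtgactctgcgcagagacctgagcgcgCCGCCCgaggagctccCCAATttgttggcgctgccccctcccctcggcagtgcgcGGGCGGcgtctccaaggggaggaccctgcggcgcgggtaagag
The Col4a1 window held 1 CCAAT and 1 GGGCGG match and the Col4a2 window 1 CCAAT and 3 GGGCGG matches, with the same marking as above. Col4a1 was at 12.02, 11.64 and 11.77 in null transformed against 12.88, 12.89 and 13.13 in null primary MEFs (-1.16 ± 0.12, adjusted p = 2.27e-06), and differed by -1.13 ± 0.12 in wildtype cells. Col4a2 had smaller falls, of 1.44-fold in null (-0.52 ± 0.12) and 1.39-fold in wildtype cells (-0.47 ± 0.12), and both were lost when all 6 groups shared 1 estimate of the spread (adjusted p = 0.191 and 0.254).

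Col4a5, an X-linked chain of the kidney, skin and smooth muscle basement membranes, rose 1.77-fold in wildtype cells (0.82 ± 0.14, adjusted p = 0.000325). It was at 8.95, 8.88 and 9.18 in wildtype transformed against 8.11, 7.98 and 8.46 in wildtype primary MEFs. In null cells it was at 8.52, 8.43 and 8.63 in transformed against 8.67, 8.31 and 8.24 in primary MEFs, which overlap (0.12 ± 0.14, adjusted p = 0.511). The test of this difference between genotypes gave -0.70 ± 0.20 (adjusted p = 0.0952), and without wildtype primary replicate 3 it was -0.84 ± 0.19 (adjusted p = 0.0453).

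Type VI collagen, which forms beaded filaments around cells, fell in 2 of its 3 measured chains. Col6a2 was at 10.64, 10.47 and 10.48 in null transformed against 11.98, 12.04 and 11.93 in null primary MEFs (-1.45 ± 0.10) and fell 2.07-fold in wildtype cells (-1.05 ± 0.10), where a second probe of the gene differed by 0.15. Col6a1 fell 1.57-fold in null and 1.31-fold in wildtype cells, and the wildtype call was lost when all 6 groups shared 1 estimate of the spread (adjusted p = 0.259). Col6a3, the largest of these chains, was at 13.25 to 13.46 in null transformed and 13.39 to 13.52 in null primary MEFs, and was called in neither genotype (-0.08 ± 0.09 and -0.12 ± 0.09).

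Fibril-associated collagens bind the surface of fibrils, and 6 of 7 measured ones fell in null and 5 of 7 in wildtype cells. Col14a1, which limits fibril growth, was at 5.94, 6.11 and 6.00 in null transformed MEFs, none above background, against 10.87, 10.77 and 11.10 in null primary MEFs, and was at least 23.4-fold lower (adjusted p = 3.33e-12). It was at least 21.7-fold lower in wildtype cells, where 1 of 3 transformed replicates was above background and their mean was not. Col12a1, its close relative, stayed well above background and fell 1.93-fold in null and 1.82-fold in wildtype cells, the wildtype call being lost with 1 spread for all 6 groups (adjusted p = 0.0505). Col20a1 fell 3.78-fold in null and 4.28-fold in wildtype cells. Col22a1, a collagen of tissue junctions, was at least 3.61-fold lower in null and at least 2.84-fold lower in wildtype cells, where 1 of 3 transformed replicates was above background and their mean was not. Col16a1 fell 1.29-fold in null cells (-0.36 ± 0.09) and differed by -0.09 ± 0.09 in wildtype cells (interaction adjusted p = 0.298), and the null call was lost with 1 spread for all 6 groups (adjusted p = 0.363).

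In the network-forming type VIII, the collagen of the cornea and of vessel walls, the 2 chains parted. Col8a2 was at 7.10, 6.24 and 7.04 in null transformed against 11.25, 11.32 and 11.49 in null primary MEFs, and fell 23.6-fold there and 24.5-fold in wildtype cells (-4.62 ± 0.22). The chosen Col8a2 probe was detected on 9 arrays and was highest in primary MEFs, so this direction is not independent of the detection rule. Col8a1 was called in neither genotype (0.04 ± 0.15 and -0.31 ± 0.15). The window of Col8a2, at chr4:126286544-126286843 (plus strand), is shown because of the size of its fall. It held 4 GGGCGG matches, of which the last 2 overlap, and none of the other 3 motifs.
Col8a2: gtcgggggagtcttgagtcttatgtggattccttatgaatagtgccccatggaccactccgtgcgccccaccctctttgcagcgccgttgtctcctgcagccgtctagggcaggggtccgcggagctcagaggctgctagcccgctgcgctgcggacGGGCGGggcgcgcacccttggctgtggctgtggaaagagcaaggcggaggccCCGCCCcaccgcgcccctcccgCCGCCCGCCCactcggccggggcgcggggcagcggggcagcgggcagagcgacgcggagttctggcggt
Among the multiplexins, basement membrane collagens whose ends release endostatin-like fragments, Col15a1 fell 2.73-fold in null and 2.76-fold in wildtype cells and Col18a1 1.76-fold and 1.53-fold. Of the membrane-spanning collagens, Col23a1 fell 4.96-fold in null and 3.80-fold in wildtype cells and Col17a1, the collagen of epidermal hemidesmosomes, 4.09-fold and 3.23-fold. Col17a1 was above background in 1 of 3 wildtype transformed replicates. Col13a1 was not above background in any culture.

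Col7a1, which forms the anchoring fibrils that tie epidermal basement membrane to the dermis, went the other way. It was at 9.66, 9.58 and 9.39 in null transformed against 7.33, 7.27 and 7.48 in null primary MEFs, and at 9.05, 8.84 and 9.06 in wildtype transformed against 7.30, 7.67 and 7.36 in wildtype primary MEFs. Every transformed replicate was above every primary one. The rise was 4.53-fold in null (2.18 ± 0.12, adjusted p = 5.38e-09) and 2.91-fold in wildtype cells (1.54 ± 0.12, adjusted p = 1.8e-07), and Col7a1 was the collagen that rose in both genotypes. Its window, at chr9:108953336-108953635 (plus strand), held 1 CCAAT, 1 GGGCGG and no TGANTCA match.
Col7a1: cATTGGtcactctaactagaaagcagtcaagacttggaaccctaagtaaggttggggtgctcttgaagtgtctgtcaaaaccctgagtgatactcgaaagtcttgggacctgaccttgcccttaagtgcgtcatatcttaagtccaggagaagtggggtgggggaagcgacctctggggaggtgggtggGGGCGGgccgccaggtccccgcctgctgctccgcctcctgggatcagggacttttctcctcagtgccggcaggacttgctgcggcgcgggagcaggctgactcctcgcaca
The rise differed between genotypes by 0.64 ± 0.17 (adjusted p = 0.0668), a call that was reached with the spread of each stage estimated apart (adjusted p = 0.0389) and over genes detected on at least 15 arrays (0.0494). Keratinocytes also make Col7a1 and Col17a1. All 8 measured keratinocyte markers fell in each genotype, where 25.8% of all genes fell in null and 25.6% in wildtype cells. In at least 1 replicate all 8 were above background in primary MEFs, and 4 in null and 3 in wildtype transformed MEFs. Where a marker of this or another list passed the detection rule through primary MEFs, its fall is not independent of the rule. The summed level of the keratinocyte markers was 9.31 to 9.46 in null transformed against 14.17 to 14.68 in null primary MEFs. In wildtype it was 9.41 to 9.57 in transformed against 12.99 to 14.23 in primary MEFs. Macrophage markers fell in 10 of 10 in each genotype. Their summed level was 9.50 to 9.61 in null transformed against 15.06 to 15.42 in null primary MEFs. In wildtype it was 9.44 to 9.50 in transformed against 15.49 to 15.86 in primary MEFs. Of 10 fibroblast markers 4 rose and 4 fell in null and 5 rose and 4 fell in wildtype cells (median 0.03 and 0.34). Of 6 pericyte and smooth muscle markers 2 rose and 2 fell in null and 1 rose and 3 fell in wildtype cells. The part of these marker lists in the collagen differences was not tested.

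**Figure D2:**
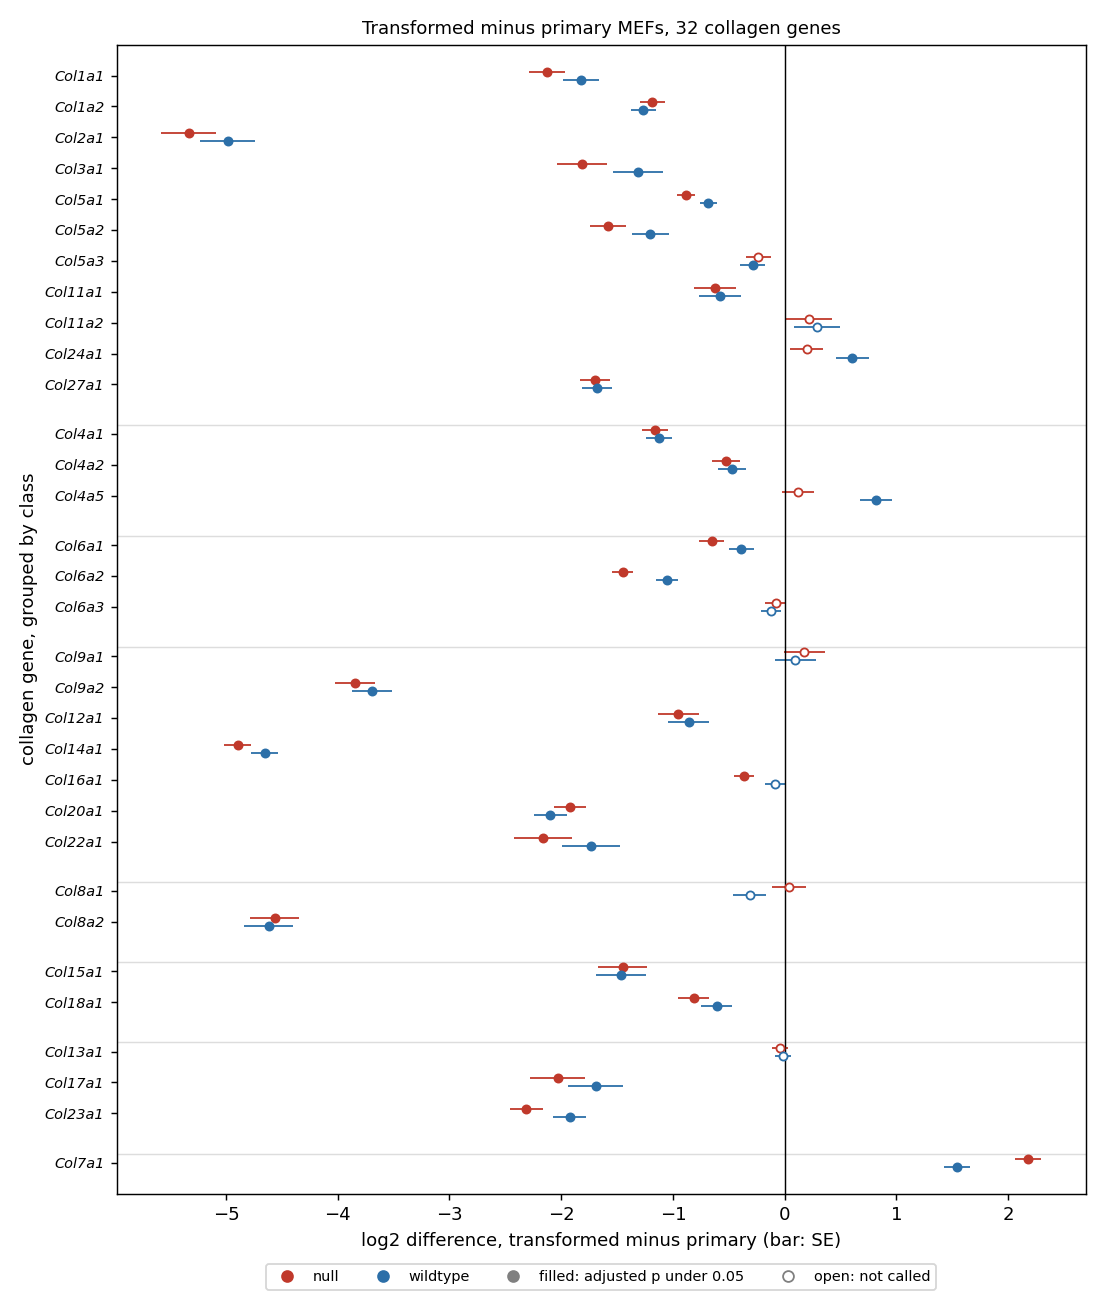
Log2 difference between transformed and primary MEFs (x axis, bars are SE) for the 32 collagen genes (y axis, grouped by class from fibrillar at the top to Col7a1 at the bottom). Red points are null and blue points wildtype cells, and filled points had a limma adjusted p under 0.05. Points show measured differences, also where a group was not above background and the text gives a bound. Col2a1, Col14a1, Col8a2 and Col9a2 lie farthest to the left and Col7a1 to the right in both genotypes.

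Genes that make collagen fell as well. Of 18 measured folding and modification enzymes, 14 fell and none rose in null cells and 13 fell and none rose in wildtype cells (median -0.55 and -0.62). For this and the lists below, 25.8% of all genes fell and 28.7% rose in null and 25.6% fell and 26.4% rose in wildtype cells. Plod2, the lysyl hydroxylase of collagen ends, differed by -1.78 ± 0.13 in null and -1.98 ± 0.13 in wildtype cells, and the prolyl 3-hydroxylase P3h1 by -1.40 ± 0.09 and -1.34 ± 0.09. Of 8 genes of propeptide processing and cross-linking 4 fell and 2 rose in each genotype. The cross-linking enzyme Lox differed by -1.86 ± 0.11 in null cells and fell in wildtype cells too, while the procollagen proteinase enhancer Pcolce2 rose by 1.94 ± 0.14 and 1.31 ± 0.14 in null and wildtype cells. Among 8 collagen receptors 3 fell and 3 rose in null cells and 2 fell and 4 rose in wildtype cells. Itga2, the integrin chain that binds type I collagen, was at least 3.15-fold higher in null and at least 3.96-fold higher in wildtype transformed MEFs. Among 15 basement membrane partners of type IV, 10 fell and 4 rose in null cells and 8 fell and 3 rose in wildtype cells, with Nid2, a nidogen that links laminin to type IV, at -3.16 ± 0.13 and -2.78 ± 0.13. Of 10 TGF-beta ligands and response genes 6 fell and 1 rose in null cells and 7 fell and 1 rose in wildtype cells. Eln, which encodes elastin, differed by -4.78 ± 0.15 and -3.53 ± 0.15.

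In tumours against transformed MEFs, several collagens were higher and fewer were lower. Limma called 17 of 32 in null tumours, 13 higher and 4 lower, where 44.9% of all genes were called (22.3% higher and 22.5% lower), and 10 of 32 in wildtype tumours, 6 higher and 4 lower, against 38.8% of all genes (19.2% higher and 19.6% lower). The wildtype share, 31.2%, is below that of all genes. All 6 collagens that rose in wildtype tumours were among the 13 that rose in null tumours (46.2% of that list), and the lower lists shared 3 of 4. Here too the tests of the 2 genotypes share 1 estimate of the spread. As deposited, the values put the median of all genes at 0.37 in both genotypes in place of -0.01 and -0.02, and called 21 collagens higher and 1 lower in null and 11 higher and 2 lower in wildtype tumours, so small differences below depend on the scaling. Replicates did not overlap for 21 of 32 collagens in null (60.6% of all genes) and 14 of 32 in wildtype (49.8% of all genes). For no collagen was a change of the genotype difference between transformed MEFs and tumours called (0 of 32 and 0% of all genes by limma, with 2 of 32 and 890 of 13870 at an unadjusted p under 0.05), so a call in 1 genotype is not shown to be particular to it.

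Col7a1 had the largest rise. It was at 13.86, 13.27 and 13.13 in null tumours against 9.66, 9.58 and 9.39 in null transformed MEFs (14.7-fold, log2 3.88 ± 0.48, adjusted p = 0.000128). In wildtype it was at 12.50, 11.89 and 14.36 in tumours against 9.05, 8.84 and 9.06 in transformed MEFs (15.3-fold, 3.93 ± 0.48, adjusted p = 0.000129). Wildtype recipients differed from each other by more than 2 log2 units, yet all 6 tumours were above all 6 cultures. Col18a1, the basement membrane multiplexin, was at 14.92, 14.59 and 14.76 in null tumours against 11.79, 12.35 and 12.19 in null transformed MEFs (6.27-fold, 2.65 ± 0.18) and rose 4.59-fold in wildtype tumours (2.20 ± 0.18, adjusted p = 1.02e-05).

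Among fibrillar collagens, Col27a1 by its chosen probe was at least 4.18-fold higher in null and at least 2.65-fold higher in wildtype tumours than in transformed MEFs, where that probe was not above background. The second Col27a1 probe, above background in transformed MEFs, differed by 0.47 in null and 0.32 in wildtype tumours. Col5a3 was at 8.29, 8.57 and 8.69 in null tumours against 6.50, 6.52 and 6.63 in null transformed MEFs (3.91-fold, 1.97 ± 0.15), and at 7.70, 7.58 and 8.04 in wildtype tumours against 6.82, 6.92 and 6.75 in wildtype transformed MEFs (1.92-fold, 0.94 ± 0.15). The groups did not overlap in either genotype, and the test of the difference between them gave 1.02 ± 0.21 (adjusted p = 0.279). Type I was not called. Col1a1 differed by 0.71 ± 0.43 in null (adjusted p = 0.195) and -0.06 ± 0.43 in wildtype tumours, where 1 recipient was at 11.16 and the others at 12.72 and 13.41, Col1a2 differed by -0.18 ± 0.32 and -0.07 ± 0.32, and Col5a2 by 0.18 ± 0.18 and -0.25 ± 0.18. Col2a1 was not above background in any tumour.

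Col3a1 and Col5a1 were called higher in null tumours (0.82 ± 0.25 and 0.68 ± 0.20) and differed by 0.14 ± 0.25 and 0.16 ± 0.20 in wildtype tumours. Col3a1 values of null tumours and null transformed MEFs overlapped. The Col3a1 call was lost without null transformed replicate 2 or null recipient 4 or 5 (adjusted p = 0.077 to 0.0873), and a second Col3a1 probe differed by -0.26, with the mean of the kept probes at 0.28 (adjusted p = 0.256). That of Col5a1 was lost without null transformed replicate 1 or 2 or null recipient 4 (0.0529 to 0.0764). Col24a1 fell in wildtype tumours (-1.09 ± 0.27, adjusted p = 0.00896) and differed by -0.40 ± 0.27 in null tumours, and with the values as deposited the wildtype value was -0.62 (adjusted p = 0.0879).

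Type IV chains moved in both directions. Col4a5 was at 6.29, 6.50 and 6.13 in null tumours, near background, against 8.52, 8.43 and 8.63 in null transformed MEFs, a fall of 4.66-fold (-2.22 ± 0.24, adjusted p = 5.05e-05). In wildtype it was at 6.19, 6.24 and 7.19 in tumours against 8.95, 8.88 and 9.18 in transformed MEFs (5.50-fold, -2.46 ± 0.24). Col4a5 was above background in 2 of 3 null and 1 of 3 wildtype tumours, so the size of both falls is limited by background. Col4a2 was at 13.11, 12.98 and 13.11 in null tumours against a mean of 11.90 in null transformed MEFs, without overlap, and rose 2.24-fold (1.16 ± 0.35, adjusted p = 0.0181), a call lost without null transformed replicate 3 (0.0556) or null recipient 4 (0.0502) and without a detection filter (0.0507). Wildtype tumours spread from 11.72 to 13.55 and the gene was not called there (0.37 ± 0.35). Col4a1 was called in neither genotype (0.87 ± 0.36, adjusted p = 0.0679, and 0.23 ± 0.36).

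All 3 type VI chains rose in null tumours. Col6a2 was at 12.45, 12.01 and 12.32 in null tumours against 10.64, 10.47 and 10.48 in null transformed MEFs (3.31-fold, 1.73 ± 0.38), Col6a1 rose 2.27-fold and Col6a3 2.37-fold. Another probe of Col6a1 and another of Col6a3 differed by -0.46 and -0.34, and with the mean of its kept probes Col6a1 was at 0.47 and not called (adjusted p = 0.112). In wildtype tumours Col6a3 rose 2.12-fold (1.08 ± 0.22, adjusted p = 0.00309), and Col6a1 (0.58 ± 0.29) and Col6a2 (0.83 ± 0.38, adjusted p = 0.105) were not called. Col6a2 in 1 wildtype recipient, at 10.66, lay among the cultures, and the other recipients were at 12.63 and 12.09.

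Of the remaining classes, Col20a1 rose in both genotypes (1.07 ± 0.19 in null and 0.56 ± 0.19 in wildtype tumours). The wildtype call was lost without wildtype transformed replicate 1, 2 or 3 or wildtype recipient 1 or 3 (adjusted p = 0.0587 to 0.13) and without a detection filter (0.0662). Col15a1 was called higher in null tumours (1.24 ± 0.46, adjusted p = 0.0445), which was lost without null transformed replicate 1 or 2 or null recipient 4 or 6 (0.086 to 0.154) and without a detection filter (0.114). Col13a1 was at least 1.19-fold higher in null tumours than in null transformed MEFs, where it was not above background, and lost its call without null recipient 4 or 6 (0.0587 and 0.0503). It was detected on 4 arrays and above background in tumours alone, so this direction is not independent of the detection rule. Col12a1 fell by 1.32 ± 0.38 in null and 1.11 ± 0.38 in wildtype tumours, Col8a1 by 1.12 ± 0.37 in null tumours, and Col8a2 was at least 1.45-fold lower in null and at least 1.65-fold lower in wildtype tumours. With the values as deposited, Col12a1 (adjusted p = 0.0794 in null and 0.173 in wildtype), Col8a1 (0.161) and the null Col8a2 difference (0.0696) were no longer called. With the mean of the kept probes Col12a1 (0.0619 in null and 0.109 in wildtype) and Col8a1 (0.0784) were not called, and without a detection filter Col12a1 in wildtype (0.0938) and Col8a1 (0.0771) were not. The Col12a1 call was also lost without null transformed replicate 1 or null recipient 5 (0.0558 and 0.0584) and without wildtype transformed replicate 1 or 3 or wildtype recipient 2 (0.0877 to 0.13), that of Col8a1 without null transformed replicate 1 or 3 or null recipient 5 (0.0605 to 0.113), and that of Col8a2 in null tumours without null transformed replicate 1 or 3 (0.0737 and 0.0707).

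**Figure D3:**
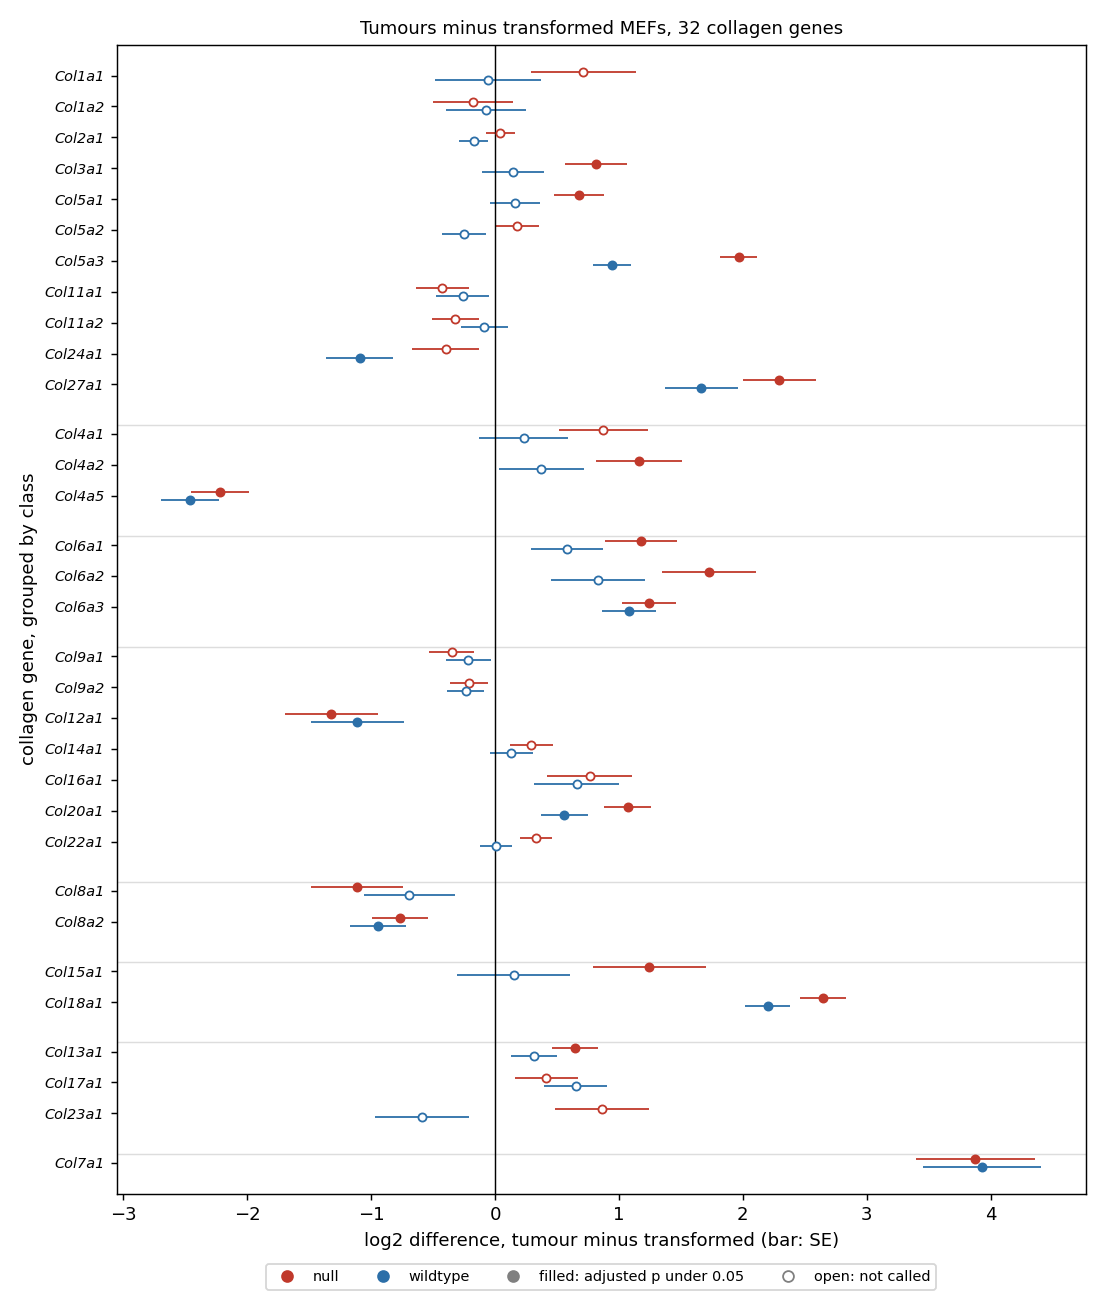
Log2 difference between tumours and transformed MEFs (x axis, bars are SE) for the 32 collagen genes (y axis, grouped by class). Red points are null and blue points wildtype, and filled points had a limma adjusted p under 0.05. Col7a1, at 3.88 in null and 3.93 in wildtype, lies farthest to the right and Col4a5, at -2.22 and -2.46, farthest to the left.

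Markers of cells that a recipient can supply differed in the same comparison. Of all genes 22.3% rose and 22.5% fell in null tumours and 19.2% rose and 19.6% fell in wildtype tumours. Macrophage markers rose in 10 of 10 in both genotypes, with a summed level of 15.18 to 15.79 in null tumours against 9.50 to 9.61 in null transformed MEFs and 15.67 to 15.83 in wildtype tumours against 9.44 to 9.50 in wildtype transformed MEFs. Of 9 endothelial markers 6 rose in null tumours, and 7 rose and 1 fell in wildtype tumours. Their summed level was 11.91 to 13.09 in null tumours against 11.01 to 11.17 in null transformed MEFs and 12.23 to 12.99 in wildtype tumours against 11.21 to 11.30 in wildtype transformed MEFs. Endothelial cells make Col4a1, Col4a2, Col15a1 and Col18a1. Of 10 fibroblast markers 2 rose in null tumours and none in wildtype tumours. Keratinocyte markers rose in 1 and fell in 1 of 8 in each genotype, with a summed level of 10.06 to 10.64 in null tumours against 9.31 to 9.46 in null transformed MEFs and 9.81 to 10.85 in wildtype tumours against 9.41 to 9.57 in wildtype transformed MEFs. Their part in the collagen differences was not tested.

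The partners of type IV rose in tumours in 7 of 15 genes in null and 5 of 15 in wildtype, and none fell (median 0.82 and 0.75), where 22.3% and 19.2% of all genes rose. Lamb3, a laminin beta chain, rose by 3.16 ± 0.71 in null tumours and was at least 10.5-fold higher in wildtype tumours. Folding enzymes were called higher in 3 and lower in 2 of 18 genes in null and higher in 4 and lower in 1 in wildtype tumours, a smaller share than the 44.9% and 38.8% of all genes called. P4ha3, a prolyl 4-hydroxylase chain, was at least 3.81-fold lower in null and at least 3.96-fold lower in wildtype tumours, while Plod2 rose by 0.99 ± 0.27 in null and 1.23 ± 0.27 in wildtype tumours. Processing and cross-linking genes were called higher in 2 and lower in 2 of 8 in null and higher in 1 and lower in 1 in wildtype tumours, with Lox at -2.35 ± 0.15 and -3.12 ± 0.15. Of 8 receptors 1 rose and 1 fell in each genotype, and Itga11, a fibroblast receptor of fibrillar collagen, differed by -2.83 ± 0.51 and -3.32 ± 0.51. TGF-beta ligands and response genes rose in 2 of 10 in null and 1 of 10 in wildtype tumours and none fell, with Tgfb1 at 1.74 ± 0.29 and 1.21 ± 0.29.

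Few collagens were called between null and wildtype. In primary MEFs limma called 0 of 32 collagens and 0.0505% of all genes (0.0433% higher and 0.00721% lower), with 3 collagens and 790 of 13870 genes at an unadjusted p under 0.05. Replicates did not overlap for 5 of 32 collagens, where 10.3% of all genes did not overlap. The 3 collagens named next were chosen after their values were seen. Col8a1 was at 11.47, 11.43 and 11.37 in null against 11.85, 11.71 and 11.78 in wildtype primary MEFs (-0.36 ± 0.09, adjusted p = 0.522), without overlap. Col5a3 differed by -0.33 ± 0.13 and Col17a1 by 0.74 ± 0.27 (adjusted p = 0.846 and 0.827). All 8 keratinocyte markers had a positive difference there, none called (median 0.77), with a summed level of 14.17 to 14.68 in null and 12.99 to 14.23 in wildtype primary MEFs, and their part in the Col17a1 value was not tested. Differences of the other chains of types I, III, IV, V and VI were small, with Col1a1 at -0.16 ± 0.18, Col1a2 at -0.15 ± 0.13, Col3a1 at 0.09 ± 0.24, Col5a2 at 0.19 ± 0.15, Col4a1 at -0.16 ± 0.11, Col4a2 at -0.19 ± 0.12, Col4a5 at 0.23 ± 0.16, Col6a1 at -0.10 ± 0.10, Col6a2 at -0.03 ± 0.09 and Col6a3 at -0.02 ± 0.09, none called. The group means of Col5a1 were equal to 2 decimals.

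In transformed MEFs limma called 4 of 32 collagens (12.5%), against 6.53% of all genes, 1 higher (2.98% of all genes) and 3 lower (3.55%). Col7a1 was at 9.66, 9.58 and 9.39 in null against 9.05, 8.84 and 9.06 in wildtype transformed MEFs and was 1.47-fold higher (0.56 ± 0.11, adjusted p = 0.0235). Col24a1 was at 7.67, 7.83 and 7.55 in null against 8.03, 8.26 and 8.21 in wildtype (-0.49 ± 0.10, adjusted p = 0.0339). Col4a5 was 1.39-fold lower (-0.48 ± 0.10, adjusted p = 0.0377) and Col6a2 1.35-fold lower (-0.43 ± 0.10, adjusted p = 0.0453). In each of the 4 the groups did not overlap. These calls were not stable: with 1 spread for all 6 groups none was made (adjusted p = 0.542 to 0.851), and without any 1 of the 6 transformed replicates the count was between 0 and 2. Col4a5 and Col6a2 were lost whichever replicate was left out (adjusted p = 0.0643 to 0.105 and 0.0504 to 0.139). Col7a1 was lost without each replicate but null 3 (0.0508 to 0.0755), and Col24a1 without null 1 or 3 or wildtype 2 or 3 (0.0848 to 0.111).

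Across the collagens in transformed MEFs, 24 of 32 differences were negative with a median of -0.19, against 6916 of 13870 and a median of 0.00 over all genes. The replicates did not overlap in 11 of 32 collagens, 1 higher and 10 lower in null, where 28.4% of all genes did not overlap. That share counts both directions together, and the share of all genes in each direction was not computed. Col1a1 was at 12.07, 12.01 and 11.99 in null against 12.73, 12.31 and 12.43 in wildtype (-0.46 ± 0.11, adjusted p = 0.0549) and Col23a1 at 7.53, 7.68 and 7.47 against 7.81, 8.24 and 8.19 (-0.52 ± 0.13, adjusted p = 0.053), neither called. Col1a2 differed by -0.07 ± 0.09, Col3a1 by -0.42 ± 0.17, Col5a1 by -0.21 ± 0.08, Col5a2 by -0.18 ± 0.16, Col4a1 by -0.19 ± 0.12, Col4a2 by -0.25 ± 0.11, Col6a1 by -0.36 ± 0.13 and Col6a3 by 0.02 ± 0.10, none called. Among fibroblast markers 4 of 10 were called lower in null and none higher, where 3.55% of all genes were lower and 2.98% higher. The 4 include Lum (-1.49 ± 0.20) and Pdgfra (-0.43 ± 0.08). The summed level of the 10 markers was 16.22 to 16.36 in null and 16.43 to 16.59 in wildtype transformed MEFs. Their part in the collagen values was not tested. Adamts2, which removes the amino propeptide of fibrillar procollagen, was lower (-0.98 ± 0.16, adjusted p = 0.0154), as was Eln (-1.44 ± 0.16, adjusted p = 0.00411). No folding enzyme of 18 was called. For no collagen was a change of the genotype difference between primary and transformed MEFs called (0 of 32 by limma, against 2.36% of all genes, 0.836% higher and 1.52% lower). At an unadjusted p under 0.05 there were 4 of 32 collagens and 2240 of 13870 genes.

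In tumours limma called 0 of 32 collagens and 0% of all genes, with 1 collagen and 313 of 13870 genes at an unadjusted p under 0.05. Replicates did not overlap for 5 of 32 collagens and 6.68% of all genes. The collagen under 0.05 was Col5a3, chosen after its values were seen, at 8.29, 8.57 and 8.69 in null against 7.70, 7.58 and 8.04 in wildtype tumours (0.74 ± 0.19, unadjusted p = 0.0076, adjusted p = 1), without overlap. Col23a1 was at 8.48, 8.40 and 8.40 in null against 7.67, 6.38 and 8.42 in wildtype tumours, which overlap. Col1a1 differed by 0.31 ± 0.56, Col3a1 by 0.26 ± 0.29, Col4a2 by 0.54 ± 0.45, Col6a2 by 0.47 ± 0.50 and Col7a1 by 0.50 ± 0.64. The SEs of these 5 genes were 0.29 to 0.64, against 0.10 to 0.17 for the same genes in transformed MEFs. Col1a2 differed by -0.17 ± 0.43, Col5a1 by 0.31 ± 0.26, Col5a2 by 0.25 ± 0.17, Col4a1 by 0.45 ± 0.47, Col4a5 by -0.24 ± 0.30, Col6a1 by 0.24 ± 0.37 and Col6a3 by 0.18 ± 0.28. With the arrays of a single chip taken at a time (1 array a recipient), no collagen was called on any of the 3 tumour chips.

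**Figure D4:**
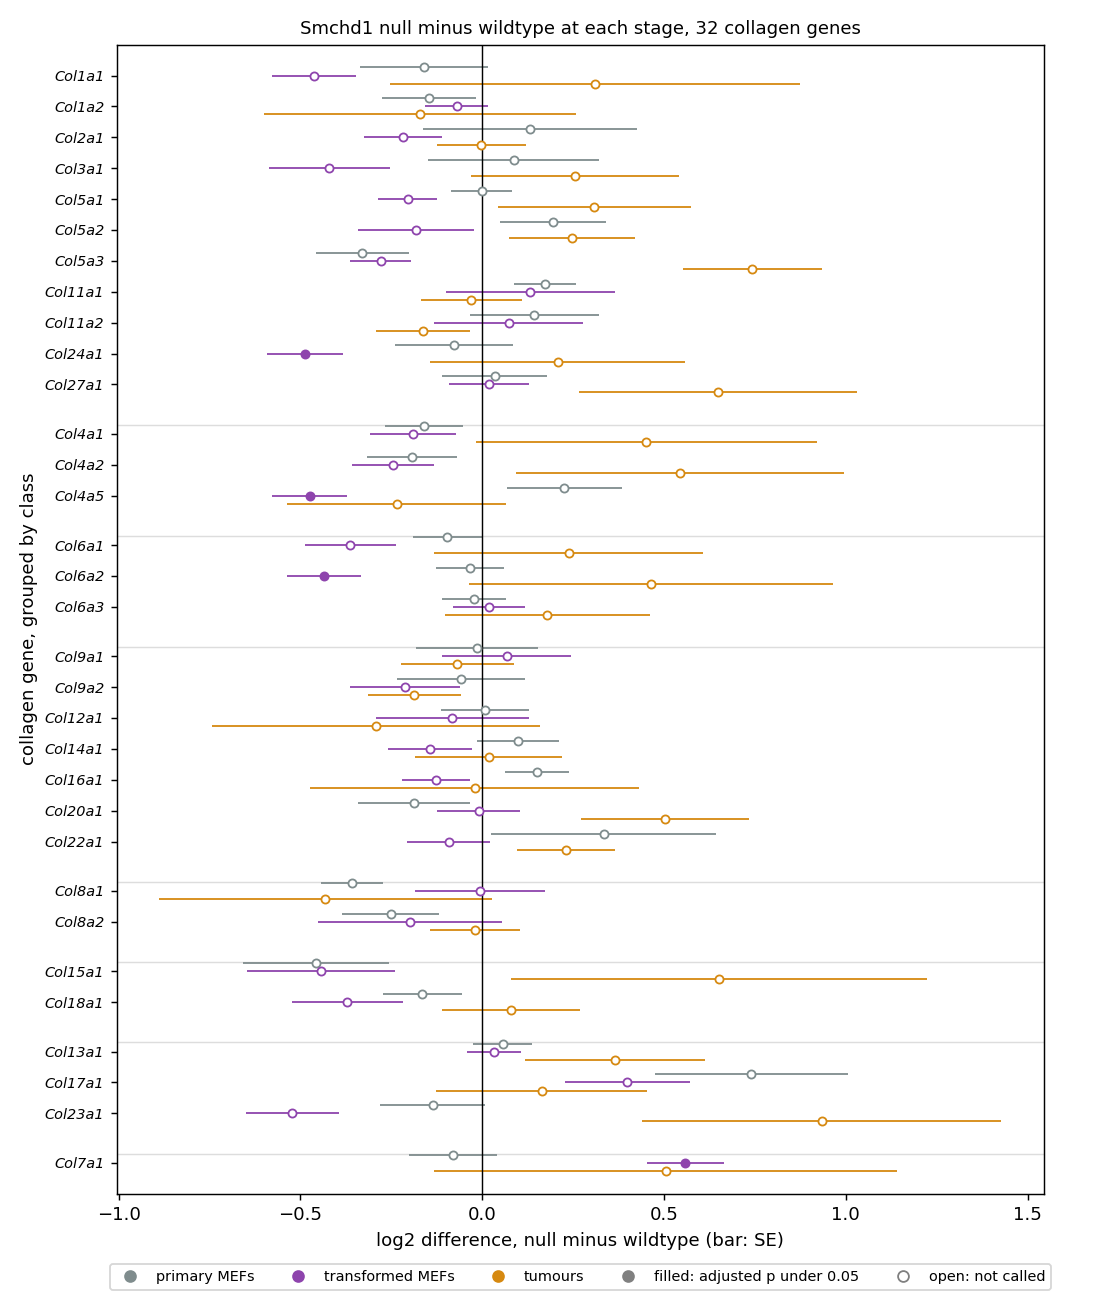
Log2 difference between null and wildtype (x axis, bars are SE) for the 32 collagen genes (y axis, grouped by class) in primary MEFs (grey), transformed MEFs (purple) and tumours (orange). Filled points had a limma adjusted p under 0.05. They are Col24a1, Col4a5, Col6a2 and Col7a1 in transformed MEFs, and the bars are widest in tumours.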

How the data were processed

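RNA of 30 arrays (Illumina MouseWG-6 V2, 1 colour) was analysed. The deposited log2 intensities come from the authors, and per the submitters' processing notes BeadStudio, limma 3.12.1 and R 2.15.1 were used. The deposited values had nearly equal distributions within each stage and a higher median in tumours, so all 30 arrays were quantile normalized together. Probes were kept when the deposited detection p-value was under 0.01 on at least 3 arrays, which left 20254 probes of 13870 genes, and the kept probe with the highest mean stood for a gene. The 480 array columns of the scanner tables, detection p-values among them, could not be matched to samples by their labels. The detection p-values served only to count the arrays on which a probe was detected. The scanner intensities were not used, so the planned background correction from control probes was not run. The number of arrays limits the precision.

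A tumour replicate is the mean of the 3 arrays of a recipient. Genotypes were compared within each stage, and stages and their interaction with genotype in a fit of the 4 groups of both stages, with limma 3.58.1 in R 4.3.3 (lmFit, eBayes) and Benjamini-Hochberg adjustment over all genes. The procedure was tested on simulated data. A gene not above background in a group, in every replicate or in the mean, gives a bound, "at least N-fold": the bright group's mean against the higher of the background level and the dim group's own level. Named were collagens called without overlap, up to 10 in each direction, the chains of types I, III, IV, V and VI, and up to 4 genes of each other list. The members and lists were chosen with earlier results of these data known. Alternatives changed the normalization, detection filter, probe choice, samples in the fit, moderation, blocks and replicates.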

Additional observations from a re-analysis of the deposited data

How the results depend on the processing

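The counts of collagens called between stages stayed within 1.5 times of those reported under every alternative run. Leaving out 1 replicate at a time gave 23 to 25 calls for transformed against primary null cells, 24 to 26 in wildtype, 12 to 16 for tumours against transformed MEFs in null and 8 to 13 in wildtype. Of the calls, 15 of 24, 13 of 26, 7 of 17 and 5 of 10 were tested and held in every alternative, and 6, 7, 1 and 2 more were never lost but were not tested over genes detected on at least 15 arrays. The genotype calls in transformed MEFs were the least stable: 1 of 40 collagens without a detection filter, 0 with 1 fit of all 6 groups, 7 with a trended and robust spread, and 0 to 2 without a replicate, against 4 reported. The change of the genotype difference with transformation gave 1 call (Col7a1) over genes detected on at least 15 arrays, 1 call (Col7a1) with the spread of each stage estimated apart, an alternative chosen after seeing the data, and 0 to 1 without a replicate, against 0 reported. Without a detection filter another Col11a1 probe stood for the gene and its difference between transformed and primary MEFs turned to 0.29 in null and 0.16 in wildtype cells. Same-numbered null and wildtype replicates of primary MEFs correlated between -0.366 and -0.00663, and those of different number between -0.273 and 0.348. In transformed MEFs same-numbered replicates correlated at 0.0655, 0.0588 and 0.0538 and the others between -0.0499 and -0.0101. A weak pairing by replicate number is therefore not excluded in transformed MEFs. With the replicate block the counts were 0 in primary and 3 in transformed MEFs between genotypes, 24 and 25 between transformed and primary null and wildtype cells, and 0 for the interaction, and with the chip as block 0 in tumours. The causes were not tested. Signal over background limits Col13a1 and, in transformed MEFs, Col2a1, Col14a1, Col22a1 and the chosen probe of Col27a1. It also limits Col5a2, Col9a2 and Col11a1 in null and Col17a1 in wildtype transformed MEFs, each above background in 1 of 3 replicates. In tumours it limits Col4a5, above background in 2 of 3 null and 1 of 3 wildtype recipients.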

Other observations

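Skeletal muscle markers fell in 5 of 7 genes in null and 6 of 7 in wildtype transformed MEFs against primary MEFs, where 25.8% and 25.6% of all genes fell, and 4 of 7 rose in null tumours against null transformed MEFs and none in wildtype tumours, where 22.3% and 19.2% of all genes rose. The test of that difference between genotypes gave no called marker of 7 and a median of 0.78.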
